A study of Homo sapiens with 18 samples.

Results

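The unfolded protein and amino acid stress genes are 36 genes chosen by symbol, and each of them had 1 row among the 35933 genes with values in the table of normalized counts. For description they were split by known role into an amino acid response branch of 20 genes and an endoplasmic reticulum branch of 16 genes. RNA from 3 human breast epithelial lines of the MCF10 series was sequenced, and each line was represented by 3 control libraries and 3 libraries labelled METTL3 knockdown, 18 libraries in all. MCF10A is a spontaneously immortalized, non-tumorigenic line, MCF10AT1 carries a mutated HRas introduced into MCF10A, and MCF10CA1h was obtained from MCF10AT1 after serial growth in mice. Cells of both arms had been transfected with a plasmid expressing Cas9, mCherry and a guide RNA, either the control guide of pCRISPR-CG01 or a guide to exon 1 of METTL3, the catalytic subunit of the m6A RNA methyltransferase. They were sorted for mCherry and grown from single cells, so every group stands for 1 clonal line and its 3 replicates (a, b and c) do not include the spread between clones. All lines were kept in the same medium with horse serum, insulin, hydrocortisone, cholera toxin and EGF, and no agent that stresses the endoplasmic reticulum or removes amino acids was added. The comparisons asked how the stress genes stood in the line labelled METTL3 against the control line at each stage, whether that difference changed between stages, and how the control lines of the 3 stages compared.

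Cells meet a shortage of amino acids or a load of unfolded protein with related programmes. Kinases that phosphorylate the initiation factor eIF2 slow translation but favour that of ATF4, a transcription factor that, with partners such as CEBPB, ATF3 and DDIT3 (CHOP), raises genes for amino acid synthesis, amino acid uptake and feedback control. In the endoplasmic reticulum, the sensor ERN1 (IRE1) splices XBP1 mRNA, and spliced XBP1 and cleaved ATF6 raise chaperones, disulphide isomerases and the machinery that removes misfolded proteins. Values per gene, as used here, do not separate the spliced from the unspliced form of XBP1, and they report neither ATF4 protein nor phosphorylation of eIF2.

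RefSeq promoters (GRCh38.p14), taken as 250 bases before to 50 after a start, were given for 33 of the 36 genes (PSPH, SLC7A11 and SHMT2 had no entry), with 45 starts in all. They were searched on both strands for 4 short motifs named after these programmes or their factors. The C/EBP-ATF response element core TGATGNAA was found in 6 genes (ATF3, CHAC1, ASNS, SLC3A2, SLC7A1 and HERPUD1), and 4.46% of the 27305 genes with a promoter held it. The endoplasmic reticulum stress element, CCAAT and CCACG with 9 free bases between them, was found in XBP1, HSPA5, HSP90B1, CALR, PDIA6 and CRELD2, against 0.0916% of all genes. Its second form, ATTGG and CCACG with 1 free base between them, was found in HYOU1, SDF2L1 and HERPUD1, against 0.0696%. The unfolded protein response element core TGACGTGG was found in HYOU1, where it overlapped a second-form element, against 0.927%. In all, 14 of the 33 genes held a match, which describes letters in these windows and not binding. The 250 bases before the start are shown for the 5 genes with a match that passed the test in the most comparisons. They read 5′ to 3′ along the gene with matches in capitals, and their genes return in the results on transcription factors, synthesis enzymes and chaperones.
CALR, chr19:12938359-12938608, plus strand: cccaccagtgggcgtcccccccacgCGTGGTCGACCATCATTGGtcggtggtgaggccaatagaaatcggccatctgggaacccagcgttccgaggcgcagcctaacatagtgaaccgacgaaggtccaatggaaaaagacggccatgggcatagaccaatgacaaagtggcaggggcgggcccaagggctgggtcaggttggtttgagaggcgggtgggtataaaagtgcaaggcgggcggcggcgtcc
HSP90B1, chr12:103930160-103930409, plus strand: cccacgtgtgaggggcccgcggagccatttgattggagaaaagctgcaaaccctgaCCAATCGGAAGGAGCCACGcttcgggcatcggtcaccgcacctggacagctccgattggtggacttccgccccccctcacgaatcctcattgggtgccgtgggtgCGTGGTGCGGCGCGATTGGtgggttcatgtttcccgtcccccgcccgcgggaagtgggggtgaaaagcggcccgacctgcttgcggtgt
ATF3, chr1:212565157-212565406, plus strand: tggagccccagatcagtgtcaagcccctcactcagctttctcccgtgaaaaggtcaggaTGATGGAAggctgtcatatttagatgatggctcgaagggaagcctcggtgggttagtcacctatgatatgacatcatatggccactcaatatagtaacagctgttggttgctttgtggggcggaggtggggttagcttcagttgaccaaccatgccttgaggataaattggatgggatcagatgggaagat
HYOU1, chr11:119057206-119057455, minus strand: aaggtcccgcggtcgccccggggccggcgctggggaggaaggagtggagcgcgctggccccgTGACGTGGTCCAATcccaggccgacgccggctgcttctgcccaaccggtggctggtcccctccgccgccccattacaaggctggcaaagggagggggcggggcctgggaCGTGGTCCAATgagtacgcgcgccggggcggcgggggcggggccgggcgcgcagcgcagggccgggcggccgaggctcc
ASNS, chr7:97872409-97872658, minus strand: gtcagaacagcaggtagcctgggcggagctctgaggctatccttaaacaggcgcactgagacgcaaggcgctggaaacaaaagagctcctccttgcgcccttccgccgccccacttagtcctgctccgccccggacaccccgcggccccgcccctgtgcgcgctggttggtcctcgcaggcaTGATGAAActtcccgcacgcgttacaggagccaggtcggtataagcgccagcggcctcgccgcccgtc

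METTL3 (ENSG00000165819, chr14:21498133-21511342 on hg38), the targeted gene, did not fall in every line. Its normalized counts in control replicates a, b and c against the libraries labelled METTL3 were 752, 686 and 459 against 939, 981 and 510 in MCF10A, where the log2 fold change was 0.33 ± 0.30 (standard error, adjusted p = 0.618 from limma). In MCF10AT1 they were 968, 1016 and 805 against 816, 752 and 902 (-0.17 ± 0.26, adjusted p = 0.707). In MCF10CA1h they were 1022, 1102 and 1280 against 825, 745 and 843 (-0.49 ± 0.12, adjusted p = 0.0234), and this call was lost without control replicate c (adjusted p = 0.0906) or without METTL3 replicate b (0.0854). The RNA of METTL3 in these libraries therefore does not by itself show that the target was lost in MCF10A or MCF10AT1. In the paper, Western blots showed less METTL3 protein in the knockdown lines at each stage, with only a moderate loss in MCF10CA1h. Its PCR gave a lesser decrease of METTL3 mRNA. It reported significantly lower m6A in MCF10AT1 and MCF10CA1h and a non-significant decrease in MCF10A. These assays covered more knockdown lines per stage than were sequenced, and the paper did not say which line was sequenced. Each group keeps the name its label gives. Library sums ranged from 21347352 to 31681834 and the mitochondrial share from 5.51% to 11.24%, and MCF10AT1 control replicate b stood apart with the fewest genes above 0 (20121 against 22669 to 26410 in the other libraries). Of the cell type markers, all 7 basal ones had a mean of at least 10 in every group, and the immune genes PTPRC and CD3E summed to at most 6.18 in any library. Of the endothelial pair, VWF reached at most 9.85 and PECAM1 ran from 15.9 to 849, and in MCF10A PECAM1 read 196, 39.8 and 15.9 in the controls against 531, 510 and 332, without overlap. In MCF10AT1, however, the 7 mesenchymal markers summed to 117709 to 206113 in the labelled METTL3 libraries against 3224 to 4754 in the controls, with 7 of 7 against 4 of 7 at a mean of at least 10, and the epithelial marker CDH1 read 11.6, 31.7 and 79.2 against 3475, 2105 and 6138. Of the basal markers there, KRT5 read 5540, 2771 and 824 in the labelled METTL3 libraries against 48735, 47281 and 36863, KRT17 read 989, 978 and 1028 against 26443, 22916 and 18003, and ITGB4 read 48088, 92425 and 167977 against 29884, 51829 and 21514, so that the 7 summed to 55251 to 170795 against 86878 to 127814. The mesenchymal sum was lower in the labelled METTL3 libraries of MCF10A (5346 to 8037 against 8796 to 15874) and higher in those of MCF10CA1h (39374 to 50873 against 27212 to 32000). Most of these mesenchymal markers did not separate the arms of MCF10CA1h. There FN1 was higher (9157, 14083 and 12135 against 2594, 3453 and 3219) and COL3A1 lower (30.5, 26.1 and 19.6 against 73.6, 42.0 and 68.3). VIM, CDH2, ZEB1, COL1A1 and THY1 overlapped between these arms. The basal sum was higher in the labelled METTL3 libraries of MCF10CA1h (368954 to 409328 against 282314 to 294228). It was also higher in those of MCF10A (289566 to 325386 against 214234 to 263027). In MCF10CA1h KRT5, KRT14, KRT17 and ITGB4 were each higher without overlap, while TP63, CDH1 and EPCAM overlapped. In MCF10A KRT5 was higher without overlap, but KRT14 and ITGB4 were lower without overlap. The differences between arms given here come from the same libraries as these marker shifts, and the part of the shifts in them was not tested. In bulk RNA a smaller number of cells of a type and less RNA per cell cannot be told apart.

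The stress genes were first summarised as the mean of log2(normalized count + 1) per library. In the amino acid response branch this mean was 11.80 ± 0.20 (SD, n = 3) in MCF10A controls, 11.52 ± 0.42 in MCF10AT1 controls and 11.00 ± 0.21 in MCF10CA1h controls. The corresponding means in the libraries labelled METTL3 were 11.46 ± 0.04, 11.47 ± 1.05 and 10.94 ± 0.09. Only in MCF10A did the 2 arms not overlap, with 11.64, 11.74 and 12.02 in controls against 11.50, 11.43 and 11.44. In the endoplasmic reticulum branch the control means were 10.65 ± 0.14, 10.42 ± 0.12 and 10.78 ± 0.03, and the labelled METTL3 means were 10.51 ± 0.04, 10.96 ± 0.15 and 10.90 ± 0.05. That branch stood higher in every labelled METTL3 library of MCF10AT1 (10.84, 10.90 and 11.12) than in any of its controls (10.31, 10.40 and 10.54), by 0.54 on average. The same order was seen in MCF10CA1h with a smaller gap of 0.12 (10.91, 10.94 and 10.84 against 10.80, 10.80 and 10.75). These means carry no test.

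**Figure D1:**
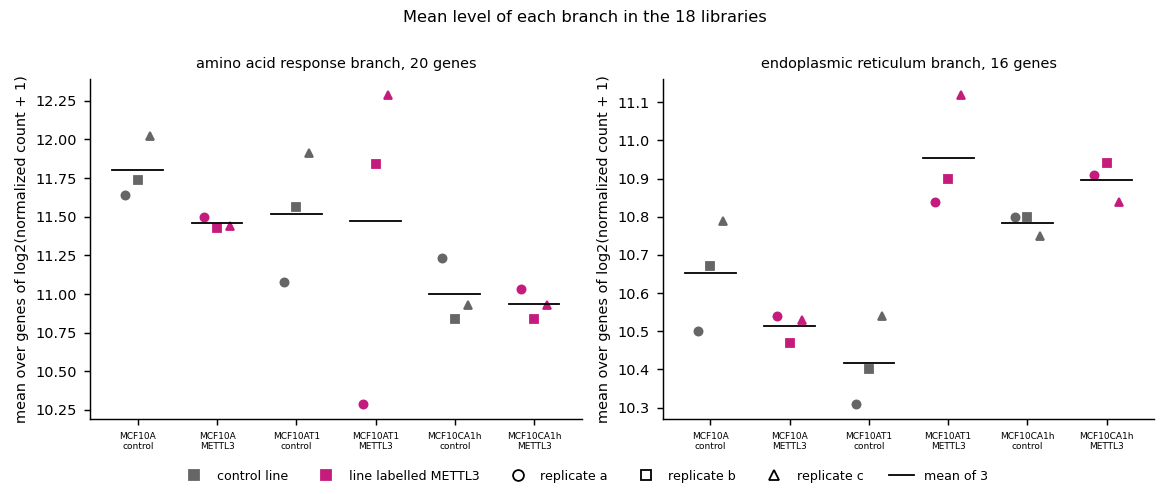
The mean over genes of log2(normalized count + 1) is plotted for each of the 18 libraries, with the amino acid response branch (20 genes) on the left and the endoplasmic reticulum branch (16 genes) on the right. Grey marks are control libraries, magenta marks are libraries labelled METTL3, marker shapes are replicates a, b and c, and bars are means of 3. The endoplasmic reticulum branch of MCF10AT1 lies at 10.84 to 11.12 in the labelled METTL3 libraries and at 10.31 to 10.54 in the controls, while the amino acid branch there runs from 10.29 to 12.29.

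Replicates of the MCF10AT1 line labelled METTL3 differed more in these genes than in genes at large. The median SD of log2 levels over its 3 replicates was 0.83 for the 36 genes and 0.43 for all genes, and it was 1.14 for the amino acid branch and 0.66 for the endoplasmic reticulum branch. In the other 5 groups the median SD of the 36 genes lay between 0.13 and 0.52, at or below that of all genes (0.19 to 0.55). Replicate a of that line held 19 of the 20 amino acid genes below the mean of its own group, by 1.18 on average, while its mean over all genes was 0.02 below. In replicate c all 20 lay above the group mean, by 0.81 on average. Among the MCF10AT1 controls, replicate a likewise had the lowest amino acid branch mean (11.08) and replicate c the highest (11.91). Libraries with the same letter deviated together in MCF10A. In MCF10AT1 they did so in part, since control replicate b followed METTL3 replicate a (correlation of deviations 0.251) more closely than the a pair did (0.110). The fit with the letter as a replicate block rests on this pairing, which was judged from these same data. It is given for those lines beside the counts and genes whose call it changed.

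Few of the stress genes passed the test between arms, which was limma on log2(normalized count + 1) with Benjamini-Hochberg adjustment over all genes tested and a threshold of 0.05. All 36 genes passed the filter of a mean of at least 10 in every fit. In MCF10A 1 of 36 was called (0 higher, 1 lower), against 2.65% of the 15416 genes tested (1.16% higher and 1.49% lower), and the median log2 fold change was -0.21 against 0.00 for all genes. With the replicate block, 5 were called (1 higher, 4 lower), against 7.60% of all genes. In MCF10AT1 2 were called (1 higher, 1 lower), against 13.0% of 16050 genes (7.07% higher and 5.96% lower), and the median was 0.37 against 0.02. With the block the count rose to 12 (9 higher, 3 lower), against 24.5%, and 6 of the 9 that were higher belong to the endoplasmic reticulum branch. In MCF10CA1h 6 were called (3 higher, 3 lower), against 12.8% of 15127 genes (7.91% higher and 4.85% lower), and the median was 0.05 against -0.02. An unadjusted p under 0.05 in limma was found for 9 of the 36 in MCF10A, 7 in MCF10AT1 and 14 in MCF10CA1h. It was found for 2839 of the 15416 genes tested in MCF10A, 4425 of 16050 in MCF10AT1 and 4230 of 15127 in MCF10CA1h. Scaling the libraries of MCF10CA1h to equal sums moved the split of calls over all genes from 1196 higher and 733 lower to 1043 and 1035, and its count among the 36 genes from 6 to 8 (3 higher, 5 lower). Control and labelled METTL3 libraries did not overlap for 11 genes in the first line, 9 in the second and 18 in the last, against 23.9%, 32.8% and 32.7% of all genes tested. In MCF10A the count rested on single libraries: it was 7 without control replicate a and 0 without any one of the other 5. In MCF10AT1 it was 1 without control replicate a or METTL3 replicate b, and 3 without control replicate b or METTL3 replicate a or c.

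**Figure D2:**
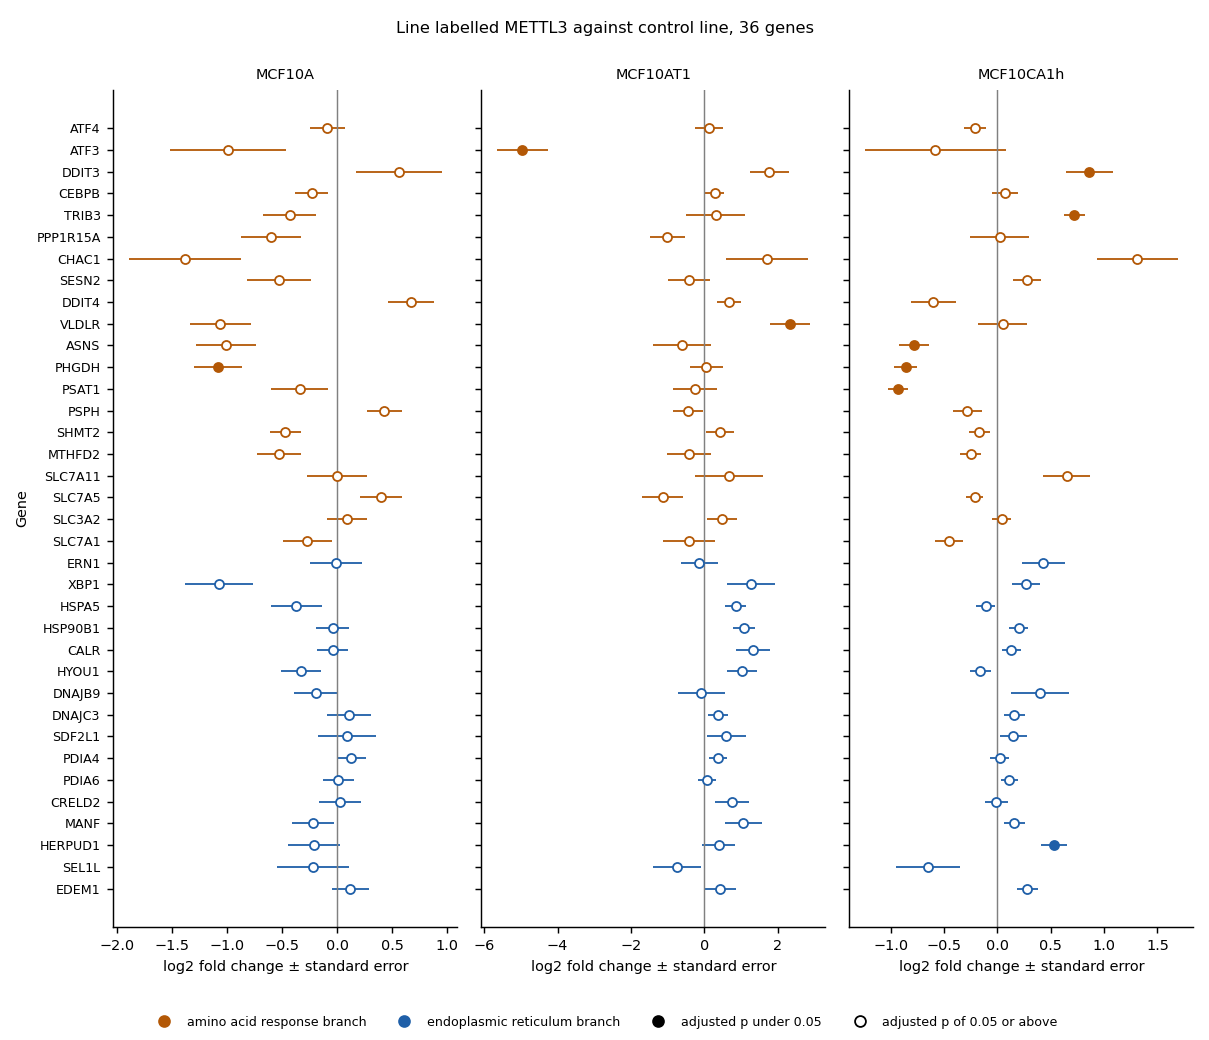
The log2 fold change of the line labelled METTL3 against the control line is plotted with its standard error for all 36 genes in each of the 3 lines, on horizontal axes of different width. Filled points passed an adjusted p of 0.05 in limma without the replicate block (1, 2 and 6 genes), and orange and blue mark the amino acid response and endoplasmic reticulum branches. ATF3 at -4.96 in MCF10AT1 lies farthest from 0.

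Whether the arms differed by a different amount between lines was tested as an interaction in 1 fit of all 18 libraries, and comparisons that use the same line share its libraries. That fit shares 1 spread among all lines. The median replicate SD of the 36 genes was 0.13 to 0.14 in MCF10CA1h but 0.52 to 0.83 in MCF10AT1. Between MCF10AT1 and MCF10A 7 of the 36 genes passed (6 with the higher difference in MCF10AT1, 1 with the lower), against 21.6% of 15897 genes (11.2% higher, 10.5% lower), and the median interaction was 0.40 against -0.00 for all genes. Of these 7, 5 belong to the endoplasmic reticulum branch: XBP1 and the chaperones HSPA5, HSP90B1, CALR and HYOU1. With the replicate block 14 passed (11 higher, 3 lower), against 28.9% of all genes. Without single libraries the count was 13 without MCF10AT1 METTL3 replicate a, 12 without MCF10AT1 control replicate b and 4 without MCF10A control replicate c. Between MCF10CA1h and MCF10A 1 gene passed, DDIT4, against 5.34% of all genes (3.65% higher, 1.69% lower), and 2 passed with the block (DDIT4 and CHAC1, 2.69, adjusted p = 0.0203), against 8.07%. The median was 0.24 against -0.03. Between MCF10CA1h and MCF10AT1 6 passed (1 higher, 5 lower in MCF10CA1h), against 18.2% (9.67% higher, 8.51% lower), with a median of -0.27 against -0.01. That count fell to 2 without MCF10CA1h control replicate a, to 3 without METTL3 replicate b or c of MCF10CA1h or METTL3 replicate b of MCF10AT1, and rose to 9 without METTL3 replicate a of MCF10AT1.

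The 9 control libraries compare the stages without the METTL3 guide. MCF10AT1 differed from MCF10A in 11 of 36 genes (5 higher, 6 lower), against 28.1% of 15652 genes (13.3% higher, 14.7% lower), and the median log2 fold change was -0.25 against -0.01 for all genes. The count fell to 2 without MCF10A control replicate b or c, to 3 without MCF10AT1 control replicate a, to 6 without MCF10CA1h control replicate a or c and to 7 without MCF10CA1h or MCF10AT1 control replicate b, and rose to 22 without MCF10AT1 control replicate c. MCF10CA1h differed from MCF10A in 17 (7 higher, 10 lower), against 37.8% (19.0% higher, 18.8% lower), with a median of -0.24 against -0.06. Counted by branch, 7 of the 8 amino acid genes called were lower in MCF10CA1h, and 6 of the 9 endoplasmic reticulum genes called were higher. That count fell to 11 without MCF10A control replicate c. MCF10CA1h differed from MCF10AT1 in 7 (5 higher, 2 lower), against 21.8% (11.0% higher, 10.8% lower), with a median of -0.06 against 0.05, and with 4 to 13 when single libraries were left out: 4 without any one of the MCF10CA1h controls and 13 without MCF10AT1 control replicate c.

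**Figure D3:**
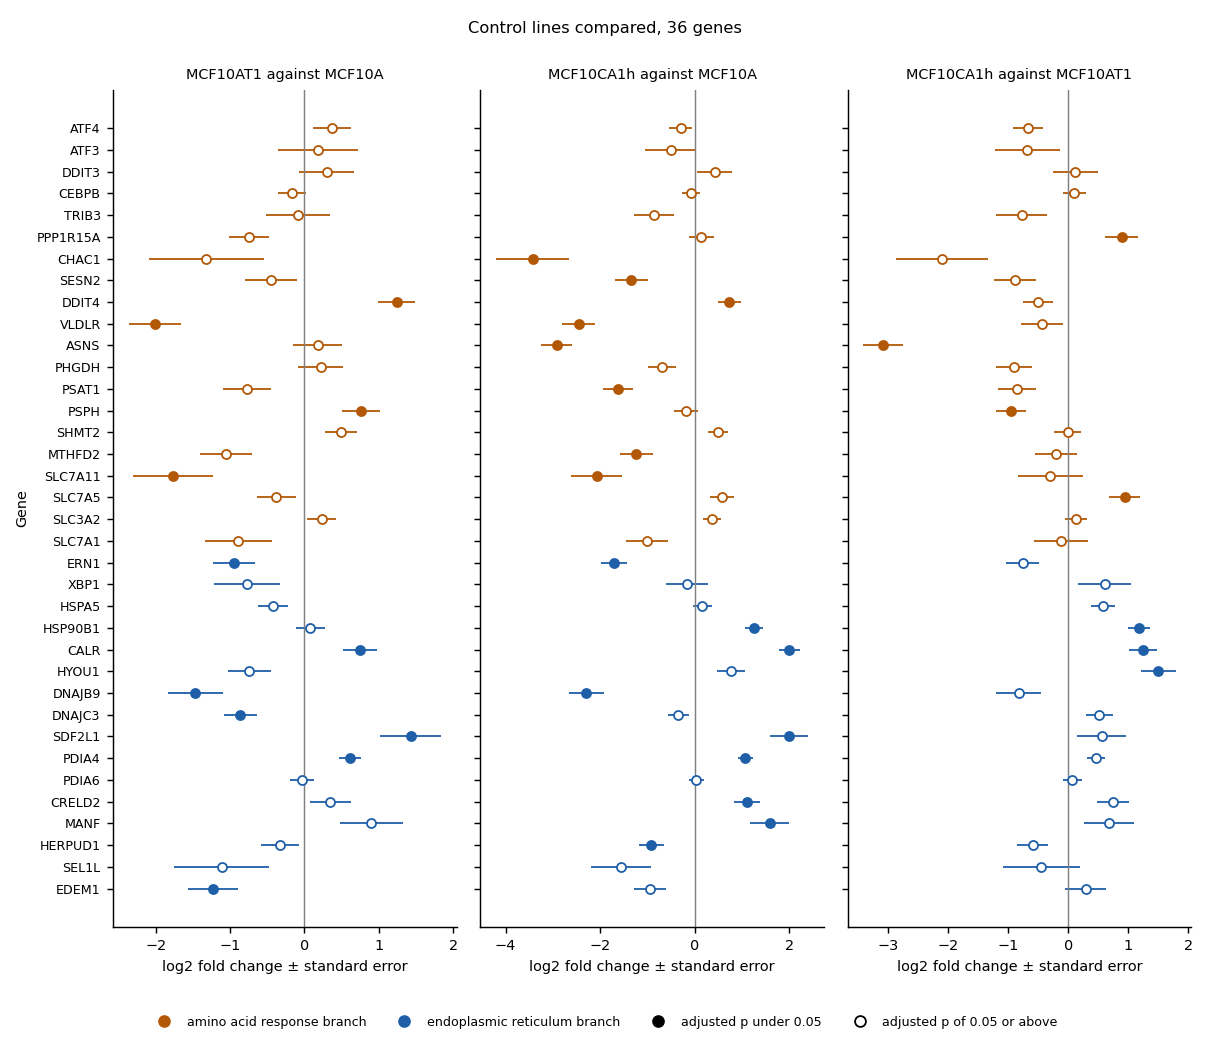
The log2 fold change between control lines is plotted with its standard error for all 36 genes, for MCF10AT1 against MCF10A, MCF10CA1h against MCF10A and MCF10CA1h against MCF10AT1, on horizontal axes of different width. Filled points passed an adjusted p of 0.05 in limma (11, 17 and 7 genes). In the middle panel ASNS (-2.92) and CHAC1 (-3.43) lie far to the left and SDF2L1 (1.99) and MANF (1.58), with CALR beside them, far to the right.

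Of the 4 transcription factors, ATF3 gave the widest difference. In MCF10AT1 its normalized counts were 2851, 1337 and 3360 in the controls and 33.3, 52.9 and 227 in the libraries labelled METTL3, with no overlap. The group means were 2516 and 104, a log2 fold change of -4.96 ± 0.69 (adjusted p = 0.00240, limma), and the call held in all 16 alternatives that were run. In MCF10A the counts were 2813, 2519 and 1254 against 1553, 1702 and 428, which overlapped (-0.99 ± 0.53, adjusted p = 0.373, and 0.0247 with the replicate block). In MCF10CA1h they were 3288, 944 and 1000 against 3120, 430 and 697 (-0.58 ± 0.66, adjusted p = 0.621), where replicate a stood above b and c in both arms. The interaction put ATF3 in MCF10AT1 lower than in MCF10A by -3.97 ± 1.11 (adjusted p = 0.0166), and MCF10CA1h stood above MCF10AT1 by 4.39 ± 1.11 (adjusted p = 0.0111). The ATF3 gene (ENSG00000162772, chr1:212565334-212620777) encodes a bZIP factor induced by many stresses, and its control levels did not differ between the lines by the test (adjusted p from 0.390 to 0.815).

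ATF4 itself was not called in any comparison. Its counts ran from 16430 to 21892 in all 6 MCF10A libraries, from 18251 to 36509 in MCF10AT1 and from 13046 to 17750 in MCF10CA1h. The log2 fold changes between arms were -0.09 ± 0.16, 0.12 ± 0.38 and -0.21 ± 0.10, with limma adjusted p of 0.831, 0.867 and 0.230. DDIT3 (CHOP), a bZIP factor tied to cell death under lasting stress, passed the test in MCF10CA1h, with 310, 180 and 273 in controls and 526, 357 and 487 in the labelled METTL3 libraries (0.86 ± 0.22, adjusted p = 0.0307). The arms did not overlap, but the call was lost without control replicate b or c or METTL3 replicate a or c, with adjusted p up to 0.0928, and in the joint fit of the 18 libraries (0.602). In MCF10AT1 DDIT3 read 187, 203 and 309 against 339, 885 and 1583, again without overlap (1.77 ± 0.54, adjusted p = 0.0700, and 0.00288 with the block). In MCF10A it read 214, 112 and 263 against 326, 173 and 361 (0.56 ± 0.39, adjusted p = 0.504), and the differences between lines did not pass (adjusted p from 0.212 to 0.890), although that between MCF10AT1 and MCF10A did with the block (1.21, adjusted p = 0.0282). CEBPB, which pairs with ATF4 at target genes, stayed between 1787 and 2796 in all 18 libraries and was not called in any comparison.

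The 6 feedback and effector genes moved apart from each other. VLDLR, a lipoprotein receptor gene (ENSG00000147852, chr9:2621182-2660056), rose in MCF10AT1 from 78.3, 118 and 168 in the controls to 269, 742 and 1007 in the labelled METTL3 libraries (2.33 ± 0.54, adjusted p = 0.0252, limma). The arms did not overlap, and the call was lost without control replicate a or METTL3 replicate b or c (adjusted p up to 0.116). In MCF10A VLDLR read 361, 441 and 655 against 267, 246 and 173, lower in every labelled METTL3 library (-1.06 ± 0.28, adjusted p = 0.0916). The interaction between MCF10AT1 and MCF10A was 3.39 ± 0.58 (adjusted p = 4.6e-04) and was called in all 28 alternatives. In MCF10CA1h VLDLR was low in both arms, with 99.8, 67.8 and 91.2 against 77.0, 85.5 and 104, and its interaction with MCF10AT1 was -2.28 ± 0.58 (adjusted p = 0.0111). Its control level was lower than in MCF10A in MCF10AT1 (-2.01 ± 0.35, adjusted p = 0.00514) and in MCF10CA1h (-2.45 ± 0.35, adjusted p = 9.9e-04).

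TRIB3, a pseudokinase that restrains ATF4, rose in MCF10CA1h from 4558, 3839 and 3995 to 6101, 7172 and 7148 (0.72 ± 0.10, adjusted p = 0.00184, limma), and the call held whichever library was left out, but not in the joint fit of the 18 libraries (adjusted p = 0.830). CHAC1, which degrades glutathione, read 70.1, 28.6 and 22.8 against 84.0, 105 and 83.9 in MCF10CA1h (1.31 ± 0.38, adjusted p = 0.0510), just short of the threshold. In MCF10A CHAC1 pointed the other way, with 209, 322 and 935 against 113, 169 and 186 (-1.38 ± 0.51, adjusted p = 0.200, and 0.0364 with the block). In MCF10AT1 it read 53.2, 205 and 364 against 80.5, 1236 and 1396 (1.70 ± 1.12, adjusted p = 0.372, and 0.00819 with the block). The interaction of CHAC1 between MCF10AT1 and MCF10A was 3.08 ± 1.27 (adjusted p = 0.0966, and 0.00322 with the block). Its control level in MCF10CA1h was far below that of MCF10A (-3.43 ± 0.77, adjusted p = 0.00762).

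DDIT4 (REDD1), an inhibitor of mTORC1, was the gene whose difference between arms passed the interaction test between MCF10CA1h and both other lines. Its counts were 26305, 17226 and 16484 against 33353, 31812 and 28130 in MCF10A, and 48013, 45904 and 44914 against 59967, 69517 and 95812 in MCF10AT1. In both of these lines every labelled METTL3 library stood above every control (0.67 ± 0.21 and 0.67 ± 0.32, limma adjusted p = 0.143 and 0.214, and 0.0361 and 0.159 with the block). In MCF10CA1h the counts were 36798, 23965 and 38531 against 18282, 18417 and 28828 (-0.60 ± 0.21, adjusted p = 0.0888). The interaction was -1.27 ± 0.35 against MCF10A (adjusted p = 0.0433) and -1.27 ± 0.35 against MCF10AT1 (adjusted p = 0.0171). The first was lost in 11 of the 18 fits that left out 1 library (adjusted p up to 0.127), among them those without MCF10A control replicate b or c or any labelled METTL3 library of MCF10A, and those without MCF10CA1h control replicate a or c or METTL3 replicate a or b. The other 2 of the 11 left out MCF10AT1 control replicate a or METTL3 replicate b. The second was lost without MCF10CA1h control replicate a or c or METTL3 replicate a (adjusted p up to 0.0527). DDIT4 control levels were higher in MCF10AT1 (1.24 ± 0.25, adjusted p = 0.00852) and MCF10CA1h (0.73 ± 0.25, adjusted p = 0.0429) than in MCF10A. PPP1R15A (GADD34), which reverses eIF2 phosphorylation, was called in 1 comparison without the block, higher in MCF10CA1h than in MCF10AT1 controls (0.89 ± 0.27, adjusted p = 0.0421), and with the block it was also lower in the labelled METTL3 line of MCF10AT1 (-1.01, adjusted p = 0.0301). The call between controls was kept only without MCF10A control replicate a or c or MCF10AT1 control replicate c (adjusted p up to 0.161 in the other 6 fits). SESN2, a leucine sensor, was lower in MCF10CA1h than in MCF10A controls (-1.34 ± 0.35, adjusted p = 0.0158). The calls of SESN2 and of DDIT4 between these controls, and those of PSAT1, MTHFD2 and HERPUD1 in the same comparison, were not refitted without single libraries.

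The 6 genes of amino acid and one-carbon synthesis held the lower calls of MCF10CA1h. All 6 had a negative fold change there, where the median over all genes was -0.02. Of the 6, 3 passed the test, all lower, against 12.8% of all genes tested (4.85% lower). PSAT1, the second enzyme of serine synthesis, fell from 3060, 2868 and 3061 to 1649, 1539 and 1535, a log2 fold change of -0.93 ± 0.09 (adjusted p = 1.8e-04, limma). PHGDH, the first enzyme of that pathway, fell from 4526, 3490 and 4122 to 2222, 2273 and 2166 (-0.86 ± 0.11, adjusted p = 8.9e-04). ASNS, which makes asparagine, fell from 895, 705 and 777 to 435, 412 and 538 (-0.78 ± 0.14, adjusted p = 0.00674). For these 3 genes the arms did not overlap and the calls held whichever library was left out, but none held in the joint fit of the 18 libraries (adjusted p = 0.498, 0.314 and 0.780), which shares 1 spread with the more variable MCF10AT1 replicates. PSPH, the last enzyme of serine synthesis, and the mitochondrial folate enzymes SHMT2 and MTHFD2 were not called, with fold changes of -0.28 ± 0.14, -0.17 ± 0.10 and -0.25 ± 0.10. The interactions of PSPH (-0.87) and SHMT2 (0.89) between MCF10AT1 and MCF10A passed with the block (adjusted p = 0.0407 and 0.0136, against 0.135 and 0.0817 without it).

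In MCF10A PHGDH was the single call. It fell from 4661, 6798 and 8564 to 2888, 3364 and 2960 without overlap (-1.08 ± 0.22, adjusted p = 0.0468, limma, and 0.0114 with the block). The call was lost without control replicate b or c or any labelled METTL3 library (adjusted p up to 0.178). ASNS read 3995, 6924 and 7682 against 3411, 2300 and 3300 in the same line, also without overlap (-1.01 ± 0.27, adjusted p = 0.0938, and 0.0421 with the block). In MCF10AT1 neither gene passed. PHGDH there read 5954, 11381 and 6392 against 4321, 13535 and 8190, and ASNS read 5063, 10703 and 5654 against 1102, 10507 and 7463, so replicate b was high in both arms and METTL3 replicate a was lowest. The ASNS fold change of -0.61 ± 0.78 became 0.39 without that library. Interactions of PHGDH and ASNS did not pass between any 2 lines (adjusted p from 0.0988 to 0.937), so a difference between lines in these falls was not shown, except that PHGDH passed with the block between MCF10AT1 and MCF10A (1.13, adjusted p = 0.00983) and between MCF10CA1h and MCF10AT1 (-0.91, adjusted p = 0.0326).

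Control levels of ASNS were much lower in the last stage. The 3 MCF10CA1h controls read 705 to 895, against 3995 to 7682 in MCF10A and 5063 to 10703 in MCF10AT1, with no overlap. The log2 fold change was -2.92 ± 0.33 against MCF10A (adjusted p = 3.3e-04, limma) and -3.09 ± 0.33 against MCF10AT1 (adjusted p = 3.7e-04), and both calls held in all 19 alternatives. PSAT1 (-1.63 ± 0.32, adjusted p = 0.00428) and MTHFD2 (-1.24 ± 0.35, adjusted p = 0.0211) were also lower in MCF10CA1h than in MCF10A controls. MTHFD2 read lower in MCF10AT1 as well (-1.05, adjusted p = 0.0513, and 0.0428 with the block). PSPH went up and down along the series, from 589, 649 and 540 in MCF10A to 797, 868 and 1459 in MCF10AT1 (0.76 ± 0.25, adjusted p = 0.0454, and 0.0718 with the block) and to 567, 484 and 512 in MCF10CA1h (-0.95 ± 0.25 against MCF10AT1, adjusted p = 0.0241). The first of these PSPH calls was kept only without MCF10AT1 control replicate b or c (adjusted p up to 0.138 in the other 7 fits without 1 library), and the second without any one of the MCF10CA1h controls (up to 0.0927).

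None of the 4 amino acid transporters was called between arms. SLC7A11, the cystine and glutamate exchanger, read 441, 470 and 256 against 627, 657 and 497 in MCF10CA1h (0.65 ± 0.22, adjusted p = 0.0868, limma). SLC7A5, the light chain of a large neutral amino acid transporter, read 14572, 13410 and 25203 against 3074, 11732 and 12857 in MCF10AT1, lower in every labelled METTL3 library (-1.14 ± 0.56, adjusted p = 0.230, and 0.0336 with the block), and its interaction between MCF10AT1 and MCF10A was -1.54 (adjusted p = 0.0575, and 0.0158 with the block). Its heavy chain SLC3A2 ran from 8849 to 25381 over the 18 libraries and was not called in any comparison, and neither was the cationic amino acid transporter SLC7A1. Between controls, SLC7A11 was lower than in MCF10A (1257, 1818 and 1724) in MCF10AT1 (187, 482 and 1096, -1.77 ± 0.54, adjusted p = 0.0383) and in MCF10CA1h (-2.07 ± 0.54, adjusted p = 0.0154). The former was kept only without MCF10A control replicate a or MCF10AT1 control replicate c, and the latter was lost in 3 fits, with MCF10A control replicate b or c or MCF10CA1h control replicate c left out. SLC7A5 was higher in MCF10CA1h (32395, 33049 and 32622) than in MCF10AT1 controls (0.94 ± 0.26, adjusted p = 0.0292), a call kept only without MCF10A control replicate a or c or MCF10AT1 control replicate c (adjusted p up to 0.102 otherwise).

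**Figure D4:**
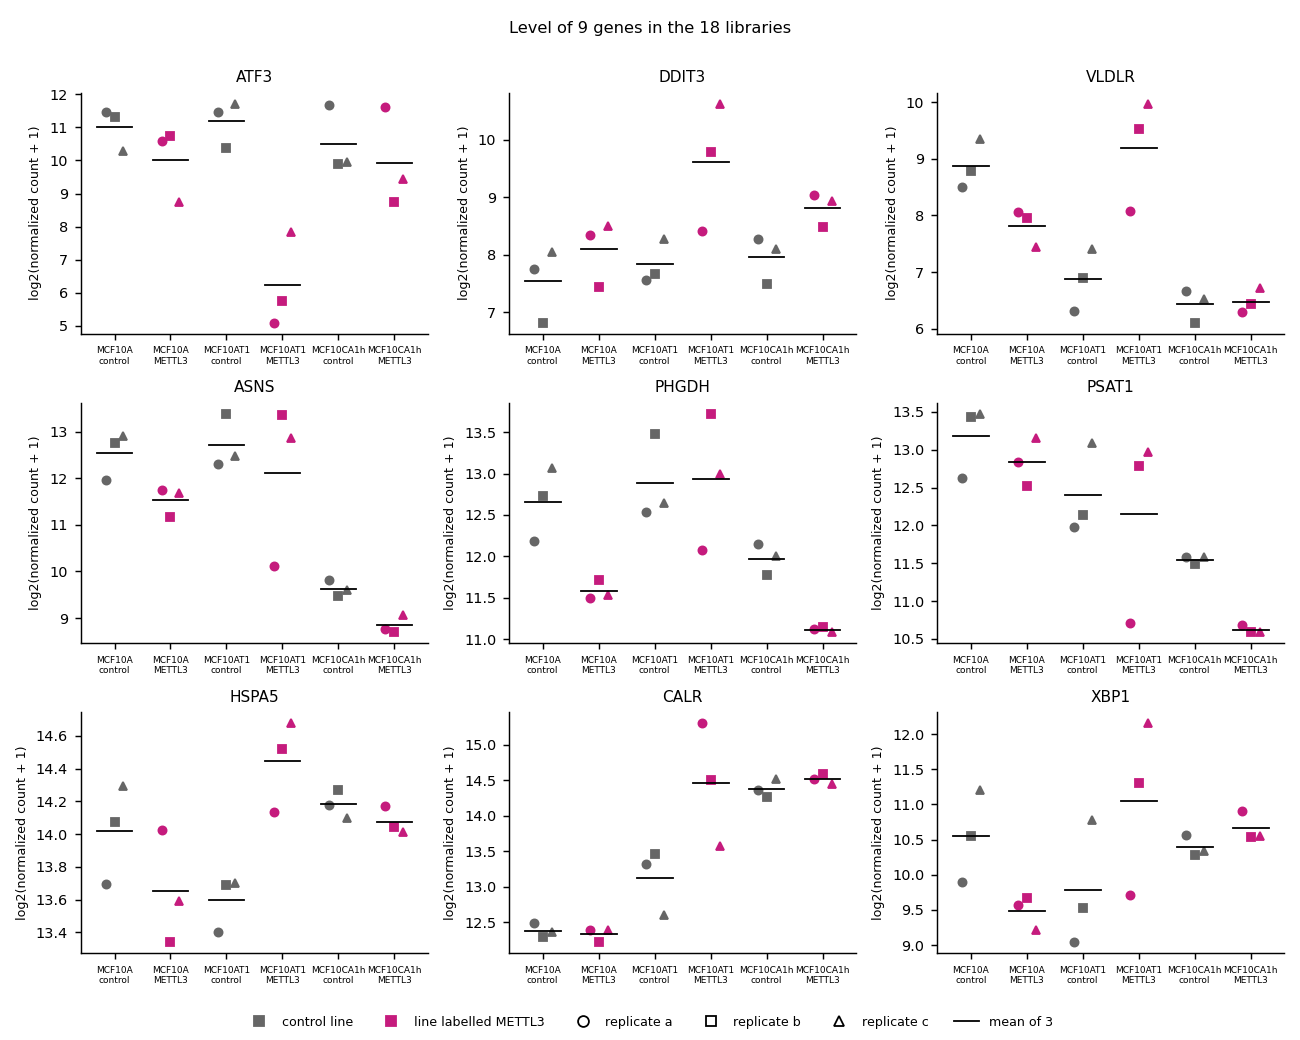
Log2(normalized count + 1) is plotted for 9 genes in the 18 libraries, with control libraries in grey, libraries labelled METTL3 in magenta, replicates a, b and c as marker shapes and bars for means of 3. The vertical axes differ between genes and do not start at 0. ATF3 drops in MCF10AT1 (from 2516 to 104 in mean normalized count), and PHGDH and PSAT1 lie in tight and separate groups in MCF10CA1h. In MCF10AT1 the replicates of CALR and XBP1 spread widely, and HSPA5 lies higher in the labelled METTL3 libraries than in the controls.

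In the endoplasmic reticulum branch, the sensor ERN1 and the factor XBP1 did not pass the test between arms in any line. ERN1 read 284, 384 and 527 against 375, 411 and 365 in MCF10A, 162, 230 and 213 against 114, 129 and 397 in MCF10AT1, and 132, 118 and 104 against 171, 127 and 182 in MCF10CA1h. Its fold changes were -0.01 ± 0.24, -0.14 ± 0.51 and 0.43 ± 0.20 (limma adjusted p = 0.988, 0.885 and 0.207). XBP1 read 952, 1497 and 2367 against 760, 812 and 591 in MCF10A, lower without overlap (-1.07 ± 0.31, adjusted p = 0.119). In MCF10AT1 XBP1 read 525, 738 and 1753 against 834, 2533 and 4554 (1.27 ± 0.66, adjusted p = 0.253, and 0.00572 with the block), and in MCF10CA1h 1513, 1246 and 1291 against 1923, 1489 and 1498 (0.27 ± 0.13, adjusted p = 0.204). The interaction between MCF10AT1 and MCF10A passed (2.34 ± 0.71, adjusted p = 0.0251), and it was lost in 5 of the 18 fits without 1 library: without MCF10A control or METTL3 replicate c, MCF10AT1 control replicate a or MCF10AT1 METTL3 replicate b or c (adjusted p up to 0.0722). It was also lost with equal sums per library and in the fit of the 12 libraries of both lines (adjusted p up to 0.0788). ERN1 control levels were lower than in MCF10A in MCF10AT1 (-0.95 ± 0.28, adjusted p = 0.0349, 0.0532 with the block, and kept only without MCF10A control replicate a or MCF10AT1 control replicate b or c) and in MCF10CA1h (-1.71 ± 0.28, adjusted p = 0.00190).

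Of the 7 chaperones, HSPA5, HSP90B1, CALR and HYOU1 passed in MCF10AT1 with the replicate block and 0 passed without it, while these 4 passed the interaction between MCF10AT1 and MCF10A without it. The shares of all genes that passed these tests were 24.5%, 13.0% and 21.6%. HSPA5 (BiP), the main chaperone of the endoplasmic reticulum lumen, read 10823, 13204 and 13313 in MCF10AT1 controls and 18016, 23511 and 26172 in the labelled METTL3 libraries, with no overlap (0.85 ± 0.28, adjusted p = 0.0856, limma, and 0.0347 with the block). In MCF10A it read 13282, 17226 and 20057 against 16657, 10364 and 12362 (-0.37 ± 0.23), and in MCF10CA1h 18490, 19709 and 17573 against 18477, 16854 and 16510 (-0.11 ± 0.09). The interaction was 1.22 ± 0.28 between MCF10AT1 and MCF10A (adjusted p = 0.00507) and -0.95 ± 0.28 between MCF10CA1h and MCF10AT1 (adjusted p = 0.0269). HSP90B1 (GRP94) read 11308, 13030 and 8382 against 25811, 23945 and 18336 in MCF10AT1 (1.07 ± 0.30, adjusted p = 0.0501, and 0.0114 with the block). It differed little between arms in MCF10A (-0.04 ± 0.15) and MCF10CA1h (0.20 ± 0.09), and its interactions were 1.11 ± 0.25 (adjusted p = 0.00395) and -0.86 ± 0.25 (adjusted p = 0.0230). Both interactions between MCF10AT1 and MCF10A held in all 28 alternatives. Those between MCF10CA1h and MCF10AT1 were lost in 7 (HSPA5) and 5 (HSP90B1) of the 18 fits without 1 library, with adjusted p up to 0.0681 and 0.0574. Both genes lost them without METTL3 replicate b of MCF10AT1, control replicate a of MCF10CA1h or METTL3 replicate b or c of MCF10CA1h. HSPA5 also lost it without MCF10AT1 control replicate a, MCF10AT1 METTL3 replicate c or MCF10CA1h control replicate b, and HSP90B1 without MCF10AT1 METTL3 replicate a. Both lost it without the filter on low values, HSPA5 with equal sums per library, and HSP90B1 in the fit of the 12 libraries of both lines.

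CALR (calreticulin), a lectin chaperone (ENSG00000179218, chr19:12938578-12944489), read 10189, 11273 and 6228 in MCF10AT1 controls and 40275, 23190 and 12148 in the labelled METTL3 libraries, with no overlap (1.33 ± 0.46, adjusted p = 0.101, limma, and 0.00574 with the block). Its counts in MCF10A stayed between 4763 and 5738, and the interaction of 1.37 ± 0.43 passed (adjusted p = 0.0318) but was lost in 8 of the 18 fits without 1 library, namely any MCF10A library other than control replicate b, MCF10AT1 control replicate c, or MCF10AT1 METTL3 replicate a or b (adjusted p up to 0.0709). The interaction was also lost in the fit of the 12 libraries of both lines (adjusted p = 0.0982). Between MCF10CA1h and MCF10AT1 it was -1.20 (adjusted p = 0.0664, and 0.00662 with the block). HYOU1, a nucleotide exchange factor for BiP, read 1617, 1486 and 3147 against 2636, 4032 and 6047, which overlapped (1.03 ± 0.41, adjusted p = 0.144, and 0.0111 with the block). Its interaction was 1.36 ± 0.40 (adjusted p = 0.0225, lost without MCF10A control replicate c or MCF10AT1 control replicate a) against MCF10A and -1.19 ± 0.40 (adjusted p = 0.0495, kept only without MCF10A control replicate a, MCF10AT1 control replicate c or MCF10AT1 METTL3 replicate a) between MCF10CA1h and MCF10AT1. Both were also lost with equal sums per library and in the fit of the 12 libraries of the lines compared (adjusted p up to 0.122 for the first). The second was also lost without the filter, without the intensity trend and with a pseudocount of 0.5 (adjusted p up to 0.147 over all settings). The replicates of the labelled METTL3 line were not ordered alike among these genes, since replicate a was highest for CALR and HSP90B1 and lowest for HSPA5, HYOU1 and XBP1. The co-chaperones DNAJB9, DNAJC3 and SDF2L1 were not called between arms in any line, and their fold changes in MCF10AT1 were -0.08 ± 0.63, 0.37 ± 0.28 and 0.60 ± 0.54.

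Of the remaining 7 endoplasmic reticulum genes, 1 was called between arms without the block. The isomerases PDIA4 and PDIA6 had fold changes between 0.01 and 0.37 in the 3 lines, with no call. MANF and CRELD2, small proteins that are kept in or secreted from the endoplasmic reticulum under stress, had fold changes of 1.06 ± 0.51 and 0.76 ± 0.46 in MCF10AT1, and MANF passed there with the block (adjusted p = 0.0205, limma), as did its interaction between MCF10AT1 and MCF10A (1.28, adjusted p = 0.0871, and 0.0119 with the block). Of the degradation genes, HERPUD1 rose in MCF10CA1h from 715, 580 and 663 to 990, 969 and 858 (0.53 ± 0.12, adjusted p = 0.0195), which was the single call of this branch in that line. It was lost without control replicate b or METTL3 replicate a or b (adjusted p up to 0.0696), and in the joint fit of the 18 libraries (0.703). SEL1L read 382, 925 and 366 against 355, 314 and 296 in the same line (-0.65 ± 0.30), with control replicate b far above the rest, and had a fold change of -0.74 ± 0.66 in MCF10AT1, and EDEM1, which steers misfolded glycoproteins to degradation, had fold changes of 0.12 ± 0.17, 0.42 ± 0.43 and 0.28 ± 0.10. Neither passed between arms.

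Between control lines, 3 chaperones were called higher in MCF10CA1h than in MCF10A and 1 was called lower. The isomerase and secreted factors called there were all higher. CALR read 5738, 5008 and 5256 in MCF10A, 10189, 11273 and 6228 in MCF10AT1 and 21055, 19722 and 23394 in MCF10CA1h, with no overlap between neighbours (mean in MCF10CA1h 4.01-fold that in MCF10A, adjusted p = 3.6e-04, limma, and a log2 fold change of 1.25 ± 0.23 against MCF10AT1, adjusted p = 0.00520). The step from MCF10A to MCF10AT1 was smaller (0.75 ± 0.23, adjusted p = 0.0386, and 0.0620 with the block), and among the fits without 1 library it was kept only without MCF10AT1 control replicate c. HSP90B1 read 25370, 24220 and 23591 in MCF10CA1h and stood above MCF10A, at 2.40-fold its mean (adjusted p = 0.00129). SDF2L1 (1.99 ± 0.41, adjusted p = 0.00525), MANF (1.58 ± 0.42, adjusted p = 0.0161), CRELD2 (1.10 ± 0.27, adjusted p = 0.0107) and PDIA4 (1.07 ± 0.15, adjusted p = 9.8e-04) were higher too. The MANF call was lost in 4 fits, without MCF10A control replicate b or c or MCF10CA1h control replicate a or c. HYOU1 passed against MCF10AT1 (1.50 ± 0.29, adjusted p = 0.00654), with 5250, 5743 and 5739 in MCF10CA1h.

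On the lower side, DNAJB9 (ERdj4), a co-chaperone of BiP, read 379, 359 and 389 in MCF10A, 167, 71.4 and 206 in MCF10AT1 and 74.9, 79.3 and 73.4 in MCF10CA1h. It was below MCF10A by -1.47 ± 0.37 in MCF10AT1 (adjusted p = 0.0191, limma, lost without MCF10A control replicate b or c) and by -2.29 ± 0.37 in MCF10CA1h (adjusted p = 0.00162). HERPUD1 was lower in MCF10CA1h than in MCF10A (-0.92 ± 0.26, adjusted p = 0.0211), and EDEM1 (-1.23 ± 0.34, adjusted p = 0.0267) and DNAJC3 (-0.86 ± 0.22, adjusted p = 0.0205) were lower in MCF10AT1. In MCF10AT1 SDF2L1 (1.43 ± 0.41, adjusted p = 0.0307) and PDIA4 (0.61 ± 0.15, adjusted p = 0.0186) were higher than in MCF10A. Of these MCF10AT1 calls, those of EDEM1, DNAJC3 and PDIA4 were lost without MCF10A control replicate b or c or MCF10AT1 control replicate a, and that of EDEM1 also without MCF10AT1 control replicate b. That of SDF2L1 was kept only without MCF10A control replicate a, MCF10AT1 control replicate c or MCF10CA1h control replicate b. PDIA6 (5288 to 7021 over the 18 libraries) and HSPA5 did not pass between any control lines.

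A further 84 genes of the same programmes, listed by role and not among the 36, were tested in the same fits. In MCF10A 4 of the 80 that passed the filter were called (5.00%, against 2.65% of all genes), all lower, and 10 with the block (all lower, against 7.60% of all genes). The 3 largest falls were those of the transsulphuration enzymes CTH (-3.94 ± 0.42, adjusted p = 0.00803, limma) and CBS (-3.58 ± 0.35, adjusted p = 0.00704) and of PCK2 (-1.42 ± 0.24, adjusted p = 0.0260), the mitochondrial form of PEP carboxykinase. In MCF10AT1 4 of 80 were called (3 higher, 1 lower), a share of 5.00% against 13.0% of all genes, and 19 with the block (13 higher, 6 lower), against 24.5% of all genes. Without the block CBS rose (3.82 ± 0.88, adjusted p = 0.0249), as did the amino acid transporter SLC43A1 (3.48 ± 0.70, adjusted p = 0.0137) and KDELR3 (1.63 ± 0.37, adjusted p = 0.0220), a receptor that returns resident proteins to the endoplasmic reticulum, and the oxidase ERO1A fell (-1.43 ± 0.39, adjusted p = 0.0486). CBS read 152, 234 and 238 in MCF10A controls, and 12.6, 60.2 and 62.4 against 146, 1078 and 930 in MCF10AT1, and its interaction was 7.40 ± 1.19 (adjusted p = 2.7e-04). In MCF10CA1h 16 of 82 were called (11 higher, 5 lower), a share of 19.5% against 12.8% of all genes (7.91% higher, 4.85% lower). The largest rises were those of KDELR3 (1.60 ± 0.18, adjusted p = 3.8e-04), the kinase EIF2AK2 (PKR), which also belongs to the interferon response (1.15 ± 0.17, adjusted p = 0.00248), and the isomerase P4HB (0.65 ± 0.10, adjusted p = 0.00256). The largest falls were those of the folate enzyme ALDH1L2 (-2.50 ± 0.41, adjusted p = 0.00365), the glycine transporter SLC6A9 (-0.67 ± 0.16, adjusted p = 0.0217) and the isoleucyl-tRNA synthetase IARS1 (-0.61 ± 0.10, adjusted p = 0.00333). By list in MCF10CA1h, 7 of 33 other folding, transport and degradation genes were called, all higher, and of 24 other amino acid response genes 1 was higher and 4 were lower. Between MCF10AT1 and MCF10A the interaction passed for 20 of 82 (19 higher in MCF10AT1, 1 lower), a share of 24.4% that lies near the 21.6% of all genes (11.2% higher, 10.5% lower), and for 30 with the block (28 higher, 2 lower), against 28.9%. The 20 held 12 of 33 folding, transport and degradation genes, all higher. The 13 aminoacyl-tRNA synthetases gave 1 call in MCF10A, 0 in MCF10AT1 and 2 in MCF10CA1h.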

How the data were processed

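Total RNA or polyA RNA (the methods text and the labels differ on which) was sequenced from 18 libraries, 3 per group. Per the labels and the methods, the authors pseudo-aligned reads with Kallisto 0.46.1, summed them to genes of hg38 with tximport and normalized them with DESeq2 1.26.0 in R 4.1.1. The deposited values are these normalized counts, a signal whose read depth per gene is unknown: only 16.6% to 39.2% of low values were whole within 0.02, so no count test or counting interval was possible. A further 24646 rows held no values. Symbols came from GENCODE release 44, and 39 genes had none.

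Here limma 3.58.1 (lmFit, eBayes with trend, R 4.3.3) was run on log2(value + 1) after removing genes whose mean in a fit was under 10, two-sided, with Benjamini-Hochberg adjustment over all genes and a threshold of 0.05. Each line was fitted alone, interactions used all 18 libraries, and controls used 9. The fit was tested on simulated data. Other values used Python 3.11.15, pandas 2.3.3 and SciPy 1.17.1. The genes and lists were chosen with earlier results of these data known, and members were named by a written rule: 1 anchor per role and up to 6 called genes per direction in each comparison. The departures from it, such as genes just short of the threshold or called only with the block, were chosen after their values were seen.

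Sample titles gave the replicate letters. Deviations of same-letter libraries from their group means correlated at 0.221, 0.200 and 0.116 in MCF10A, at 0.110, 0.289 and 0.477 in MCF10AT1 and at -0.011, 0.017 and 0.046 in MCF10CA1h, so the replicate block is given where it changed a call of the first 2 lines or of a comparison between them. Unlike letters gave -0.17 to 0.009 in MCF10A, -0.413 to 0.251 in MCF10AT1 and -0.119 to 0.104 in MCF10CA1h. The pairing was chosen from these same data, and in MCF10AT1 it is not settled. Since nothing says that replicates were separate cultures, p-values measure the spread between these libraries, which may be technical. For METTL3 the exact permutation p was 0.300, 0.300 and 0.100, where 0.1 is the smallest that 3 against 3 allows.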

Additional observations from a re-analysis of the deposited data

Results flagged for a closer look

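In 14 cases, shared by 8 of the 36 genes, the difference between arms was itself different between 2 lines by the interaction test (limma, Benjamini-Hochberg adjusted p under 0.05). Between MCF10AT1 and MCF10A it was higher in MCF10AT1 for VLDLR (3.39, adjusted p = 4.6e-04), XBP1 (2.34, adjusted p = 0.0251), CALR (1.37, adjusted p = 0.0318), HYOU1 (1.36, adjusted p = 0.0225), HSPA5 (1.22, adjusted p = 0.00507) and HSP90B1 (1.11, adjusted p = 0.00395), and lower for ATF3 (-3.97, adjusted p = 0.0166). Between MCF10CA1h and MCF10AT1 it was higher in MCF10CA1h for ATF3 (4.39, adjusted p = 0.0111), and lower for VLDLR (-2.28, adjusted p = 0.0111), DDIT4 (-1.27, adjusted p = 0.0171), HYOU1 (-1.19, adjusted p = 0.0495), HSPA5 (-0.95, adjusted p = 0.0269) and HSP90B1 (-0.86, adjusted p = 0.0230). Between MCF10CA1h and MCF10A it was lower for DDIT4 (-1.27, adjusted p = 0.0433). Of these 14, 13 involve the MCF10AT1 libraries, in which mesenchymal markers also stood higher in the labelled METTL3 line. The shares of the 36 genes called in these comparisons, in the order given, were 19.4%, 16.7% and 2.78%. Over all genes they were 21.6%, 18.2% and 5.34%, so the 36 genes were not called more often than genes at large. In the fit of the 12 libraries of both lines, XBP1, CALR and HYOU1 were lost between MCF10AT1 and MCF10A, and HYOU1 and HSP90B1 between MCF10CA1h and MCF10AT1. Of the 18 fits without 1 library, XBP1, CALR and HYOU1 were lost in 5, 8 and 2 between MCF10AT1 and MCF10A. DDIT4, HYOU1, HSPA5 and HSP90B1 were lost in 3, 15, 7 and 5 between MCF10CA1h and MCF10AT1. DDIT4 was lost in 11 between MCF10CA1h and MCF10A. The remaining cases were kept in all 18.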

How the results depend on the processing

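Counts of the 36 genes called between arms changed with the fit. In MCF10A the count of 1 became 0 with an adjusted p under 0.01, without the intensity trend, with equal sums per library and in the joint fit, which pools the 18 libraries, and 0 to 7 when 1 library was left out. In MCF10AT1 the count of 2 became 1 at an adjusted p under 0.01 and 11 in the joint fit (which called 32.4% of all genes), and 1 to 3 with 1 library left out. In MCF10CA1h the count of 6 became 0 in the joint fit (1.56% of all genes), and 4 to 7 with 1 library left out. With the letter as a replicate block the counts were 5, 12 and 10, against 7.60%, 24.5% and 12.4% of all genes. The letters did not pair the libraries of MCF10CA1h. For the interactions, the share of all genes called is given in brackets. The count of 7 between MCF10AT1 and MCF10A became 3 at 0.01 (12.9%), 14 with the replicate block (28.9%) and 4 in a fit of the 12 libraries of both lines (14.4%), with 4 to 13 when 1 library was left out. The count of 1 between MCF10CA1h and MCF10A became 0 at 0.01, without the filter and without the trend. It became 2 with the block (8.07%) and 5 in the fit of 12 libraries (14.3%), with 0 to 1 when 1 library was left out. The count of 6 between MCF10CA1h and MCF10AT1 became 0 at 0.01 and 3 without the filter (7.57%), with 2 to 9. Between controls, MCF10AT1 against MCF10A gave 2 at 0.01 (7.83% of all genes) and 7 without the filter (10.6%), with 2 to 22 when 1 library was left out. MCF10CA1h against MCF10A gave 10 at 0.01 (19.4%), with 11 to 22, and MCF10CA1h against MCF10AT1 gave 4 at 0.01 (8.75%), with 4 to 13. The replicate block gave 9, 18 and 7 there, against 23.5%, 34.6% and 17.6% of all genes. The change in METTL3 in MCF10CA1h ran from -0.56 to -0.40 with 1 library left out. The mean over the 36 genes went from -0.25 to -0.10 in MCF10A, from 0.22 to -0.03 in MCF10AT1 and from 0.02 to -0.33 in MCF10CA1h with the median over genes in place of the mean, so its direction turned in the last 2 lines. Among the single genes recomputed, the sign changed for 5 values, none of them called: in MCF10A ATF4 (0.00 with equal sums, -0.20 to 0.01 with 1 library left out) and ERN1 (0.08 and -0.23 to 0.21), and in MCF10AT1 ATF4 (-0.04 and -0.06 to 0.41), ASNS (-1.23 to 0.39 with 1 library left out) and ERN1 (-0.71 to 0.18). Equal sums moved the median of all genes to 0.08, -0.15 and -0.08 in the 3 lines. Except where a fit's construction gives it, the cause of these changes was not tested. Read depth per gene is unknown, and 3 libraries of 1 clone per group limit every comparison.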
